A study of Homo sapiens with 6 samples.

Results

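The 9 genes described here are classic transcriptional targets of the tumour suppressor p53, namely MDM2, CDKN1A, GDF15, SESN1, FAS, TNFRSF10B, ZMAT3, RRM2B and BTG2. They were chosen by name, as 9 of the 20033 protein-coding genes of the GENCODE release 44 annotation, by a rule that uses no measured value, though with earlier results of these data known. Peaks of the 6 libraries were merged into 1 region wherever they overlapped by at least 1 bp, and the windows of the 9 genes (gene body plus 20 kb on each side) held 66 of the 89196 regions. Chromatin accessibility was measured by Omni-ATAC, in which the Tn5 transposase cuts and tags open DNA, in MM.1S, a human multiple myeloma cell line. CB-6644 inhibits the ATPase activity of the RUVBL1/RUVBL2 complex, and 3 libraries came from cells given CB-6644 at 120 nM for 72 h while 3 came from cells given DMSO, for which the label states no time. All 6 libraries come from a single line, and the study sorted live cells, negative for a live/dead stain, before making them. The purity of that sort is not given. Nothing in the labels says that the replicates were separate cultures, so p-values measure the spread between these libraries, which may be technical.

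p53 is a transcription factor that is kept at a low level by MDM2, a ubiquitin ligase that p53 itself induces, and that accumulates after DNA damage and other stress. It binds DNA as a tetramer at a pair of adjoining short motifs, near promoters, in introns and at a distance. Its targets halt the cell cycle, repair DNA and supply nucleotides for repair, limit growth signalling, or sensitise the cell to death, and the 9 genes cover each of these roles.

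The stretches below show matches to the p53 consensus in the gene windows, since they are where p53 would be looked for and they differed in whether any library had a peak there. The consensus, a pair of adjoining motifs of 10 bases each, is its own reverse complement, so 1 search covered both strands. Capitals mark the match, with 20 bases shown on each side, on the plus strand of hg38. The MDM2 match had 2 mismatches and lay at -70 bp from the downstream promoter start, and the FAS match had 2 mismatches and lay at -110 bp from its nearest start. The CDKN1A match shown first had 2 mismatches and spanned the most upstream annotated start, the GDF15 match had 1 mismatch and lay at -775 bp from the upstream start, and the ZMAT3 match had 0 mismatches and lay 1.37 kb inside the gene.
MDM2 chr12:68808903-68808962: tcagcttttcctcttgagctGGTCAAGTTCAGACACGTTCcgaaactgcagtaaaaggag
FAS chr10:88991289-88991348: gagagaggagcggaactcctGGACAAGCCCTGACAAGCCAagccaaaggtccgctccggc
CDKN1A chr6:36676429-36676488: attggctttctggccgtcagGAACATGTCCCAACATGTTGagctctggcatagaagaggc
GDF15 chr19:18373927-18373986: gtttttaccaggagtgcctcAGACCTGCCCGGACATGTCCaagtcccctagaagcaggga
ZMAT3 chr3:179070168-179070227: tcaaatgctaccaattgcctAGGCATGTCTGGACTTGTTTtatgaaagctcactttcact

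Regions that were called in unequal parts of the 6 libraries are shown next, with consensus matches again in capitals and all other bases in lower case. The CDKN1A region was intergenic, at -9.14 kb from the nearest start, was called in all 3 DMSO and 2 CB-6644 libraries and held a match with 1 mismatch. The GDF15 and SESN1 regions were intronic and were called in the 3 DMSO libraries and no CB-6644 library. The GDF15 region held a match with 3 mismatches, and the SESN1 stretch, 300 bases with the strongest summit of a longer region, held none.
CDKN1A chr6:36667131-36667414: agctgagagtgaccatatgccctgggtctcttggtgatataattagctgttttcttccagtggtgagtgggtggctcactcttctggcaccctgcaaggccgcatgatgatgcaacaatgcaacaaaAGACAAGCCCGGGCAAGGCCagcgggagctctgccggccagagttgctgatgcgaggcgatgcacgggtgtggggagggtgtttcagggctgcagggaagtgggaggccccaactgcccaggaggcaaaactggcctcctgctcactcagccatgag
GDF15 chr19:18386805-18386977: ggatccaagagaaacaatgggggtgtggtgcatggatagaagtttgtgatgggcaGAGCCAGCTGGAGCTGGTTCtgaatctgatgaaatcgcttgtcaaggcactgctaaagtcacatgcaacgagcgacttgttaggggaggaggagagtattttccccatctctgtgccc
SESN1 chr6:109036533-109036832: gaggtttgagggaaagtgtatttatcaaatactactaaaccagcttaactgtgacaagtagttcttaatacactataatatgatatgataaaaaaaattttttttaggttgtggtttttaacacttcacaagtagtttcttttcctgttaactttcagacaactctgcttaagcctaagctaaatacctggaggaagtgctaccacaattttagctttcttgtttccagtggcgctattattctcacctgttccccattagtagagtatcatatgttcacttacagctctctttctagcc

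Of the 15 matches with at most 2 mismatches in the 9 windows, 4 lay inside a region, and 11 were covered by a peak in no library. The regions took up 3.95% of the bases of the windows. Within 100 bp of the strongest summit, 3 of the 66 regions held a match with at most 3 mismatches (4.55%), against 0.979% of all regions searched in the same length. With at most 2 mismatches the shares were 1.52%, or 1 region, and 0.216%. The genes were chosen as p53 targets, and with counts of 3 and 1 neither share is read as a difference from the background. A match describes the letters and says nothing of binding.

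**Figure D1:**
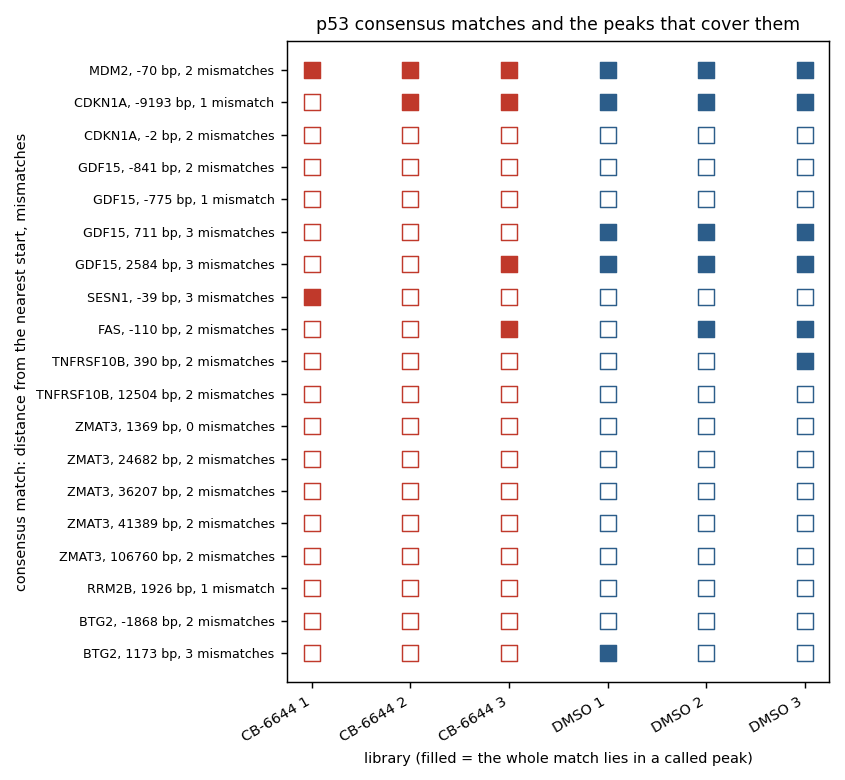
The 19 consensus matches (rows: gene, distance in bp from the nearest annotated start, negative before it, and mismatches) against the 6 libraries (columns). Filled squares mark matches that lay wholly inside a called peak, red for CB-6644 and blue for DMSO. The MDM2 match was covered in all 6 libraries and 11 matches were covered in none.

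The match at the downstream MDM2 start was covered in all 6 libraries. The FAS match was covered in CB-6644 replicate 3 and in DMSO replicates 2 and 3. The matches at the upstream CDKN1A start, the upstream GDF15 start and inside ZMAT3 were covered in no library, with the nearest region 2018 bp, 502 bp and 1116 bp away. The 19 matches are the 15 above and 4 with 3 mismatches, which were searched for only inside regions. Of those 4, 1 lay in the DMSO-only region of GDF15 and 1 in a BTG2 region called in DMSO replicate 1 alone. Those of SESN1 and of the coding exon of GDF15 lay in regions called in all 6 libraries. Since called regions decided which of these entered, coverage over the 19 was not compared between the groups. The bases that peaks covered in the 9 windows were 21745, 11674 and 23386 in the CB-6644 libraries and 19143, 26376 and 26396 in the DMSO libraries. Whether the called bases bear on which matches were covered was not tested.

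The files list peaks and not reads. For every peak in the lists, the fold enrichment (pile-up at the summit over local background) and the -log10 p could be solved for a whole number of tags at the summit, within 0.05 tags. The lists held 58563 to 71781 peaks in the CB-6644 libraries and 65569 to 79020 in the DMSO libraries. The genome-wide background, which stands in for depth, was taken as a library's lowest recovered local background. Divided by the length of the library's shortest peak, it was 3.20 to 7.05 tags per kb with CB-6644 and 6.40 to 9.08 with DMSO. These ranges overlapped, with the lowest value in CB-6644 replicate 2 and the highest in DMSO replicate 2. CB-6644 replicate 2 and DMSO replicate 1 stand apart, with shortest peaks of 65 and 91 bp against 131 to 152 bp in the other 4 libraries, which are called the long-peak libraries here, a name for the shortest listed peak and not for a measured fragment length. To compare libraries of unequal depth, each peak was given its percentile, the share of its own library's peaks with a -log10 p no higher than its own. A promoter peak in all 6 libraries was found for 5 of 5 plasma cell markers (SDC1, TNFRSF17, PRDM1, XBP1 and IRF4), and in no library for MS4A1, CD3E, CD3D, LYZ and KRT19. PAX5, CD14 and EPCAM also had one in all 6, so a promoter peak does not by itself mark a cell type here.

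The promoters of the p53 targets were open with and without CB-6644. A peak within 1000 bp of an annotated start was present in all 6 libraries for 9 of the 9 genes, against 64.7% of all protein-coding genes. For 8 of the 9 it was the same region in all 6 libraries, against 64.5% of genes, and GDF15 was the exception. Of the 66 regions, 34 (51.5%) were called in all 6 libraries, against 47.2% of all regions. DMSO-only regions numbered 2, or 3.03% against 4.50% of all regions, and 1 region was CB-6644-only, or 1.52% against 0.586%. With counts of 2 and 1, neither share is read as a difference from the background. Of the 32 regions not called in all 6 libraries, 21 (65.6%) had more DMSO than CB-6644 calls and 9 (28.1%) had fewer, against 61.5% and 24.2% of all such regions.

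**Figure D2:**
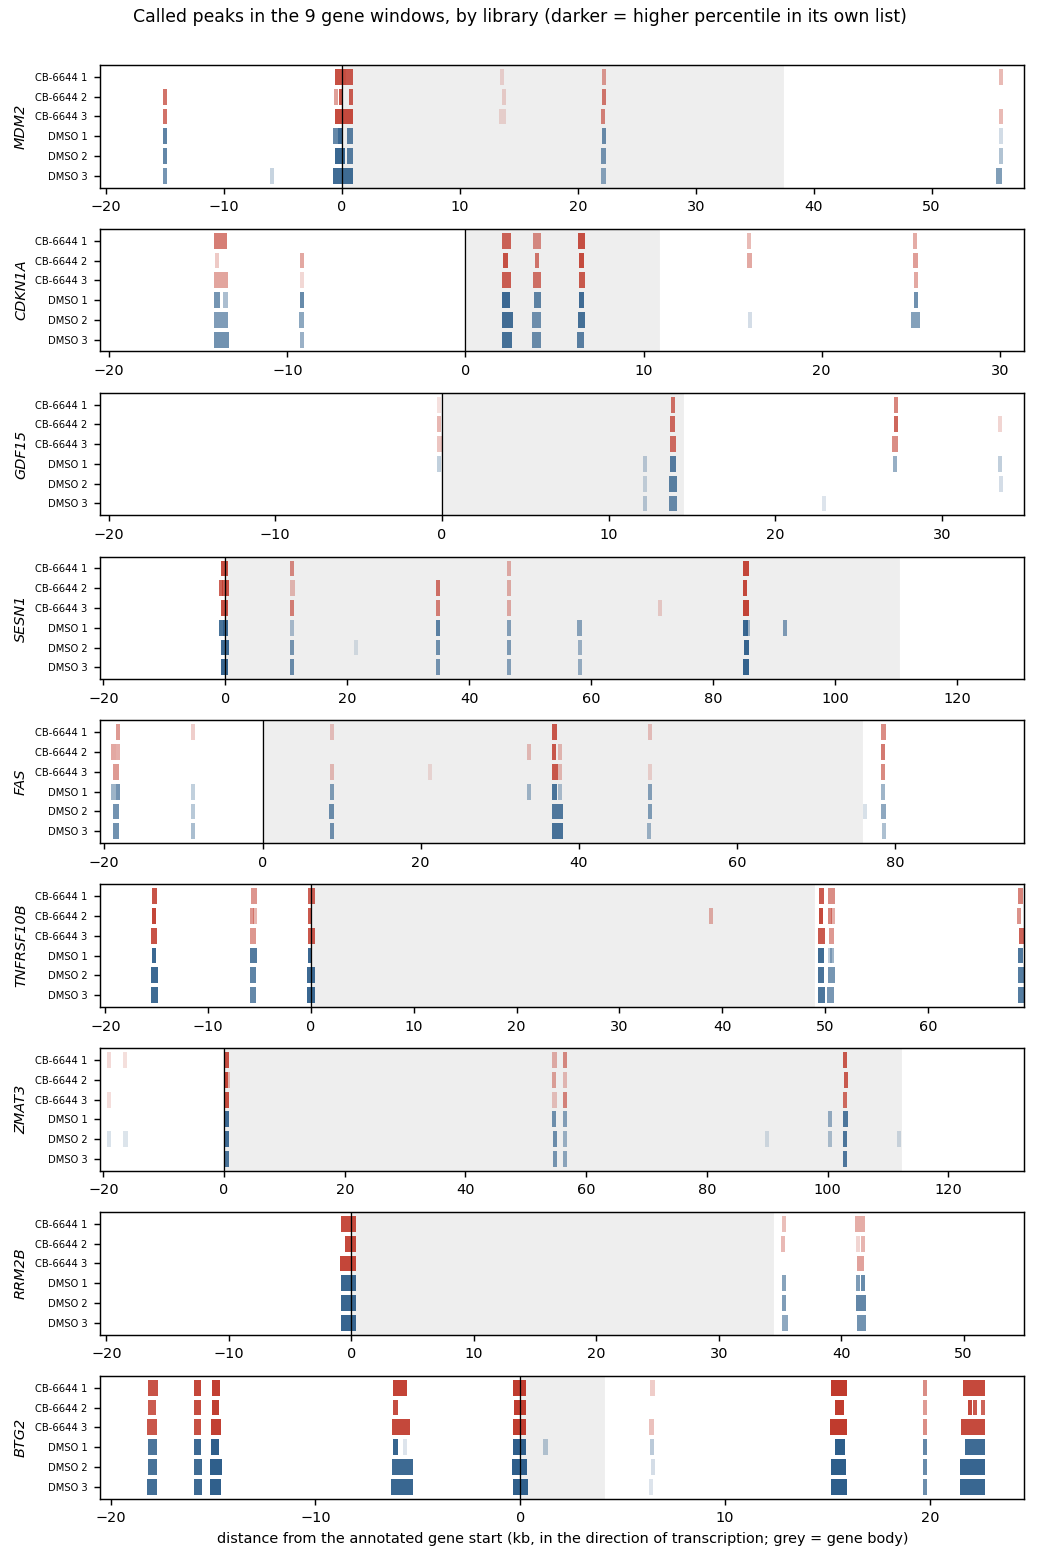
Called peaks of the 9 genes by distance from the annotated gene start in kb, along the direction of transcription, 1 row per library (red CB-6644, blue DMSO, darker for a higher percentile). Grey marks the gene body, and narrow peaks are drawn at a minimum width so that they can be seen. Promoter peaks stood in all 6 rows of every gene but GDF15, whose weak peaks near its starts were at different sites.

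The number of peaks in a window did not separate the groups for any of the 9 genes. The counts overlapped in 9 of 9 windows, and the exact two-sided permutation p ran from 0.5 to 1, in a design of 3 against 3 that cannot go below 0.1. SESN1 had 4, 7 and 6 peaks with CB-6644 and 9, 7 and 6 with DMSO. BTG2 had 9, 10 and 9 with CB-6644 and 11, 9 and 9 with DMSO. A count also rises where 1 region holds several peaks. The TNFRSF10B window had 7 regions, yet 9 peaks in CB-6644 replicate 2, which has the shortest listed peak. Fewer peaks in every CB-6644 library than in any DMSO library were found in 0 of the 9 windows, against 5.56% of all genes.

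Regions called in all 6 libraries were compared by limma on the log2 fold enrichment after quantile normalisation, with Benjamini-Hochberg adjustment over 42089 regions. Of the 34 regions of the p53 targets, 0 were lower and 0 were higher at an adjusted p under 0.05, against 0.461% lower and 0.513% higher among all regions. At an unadjusted p under 0.05 there were 7 of the 34, and 6196 of the 42089 over all regions. Of the 7, 6 were lower with CB-6644. The direction was not counted over all regions at this threshold, so the 6 have no background and are not read as a result. The median log2 difference, CB-6644 minus DMSO, was 0.11 over the 34 regions and 0.02 over all regions, and 11 of the 34 were below 0 against 46.3% of all regions.

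The direction of the group depended on the measure. On the log2 summit pile-up, also quantile-normalised, the median difference was -0.08 over the 34 regions and 0.01 over all regions, and 27 of the 34 were below 0 against 48.1%. That fit called 4 regions lower and 1 higher, against 5.35% and 4.97% of all regions. Adding the short- or long-peak library set as a term to the fit of fold enrichment called 4 lower and 0 higher, against 4.01% and 3.40%. By percentile, 11 of the 34 regions (32.4%) were lower in every CB-6644 library than in any DMSO library, against 24.5% of all regions, and 1 (2.94%) was higher in every one, against 5.61%.

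**Figure D3:**
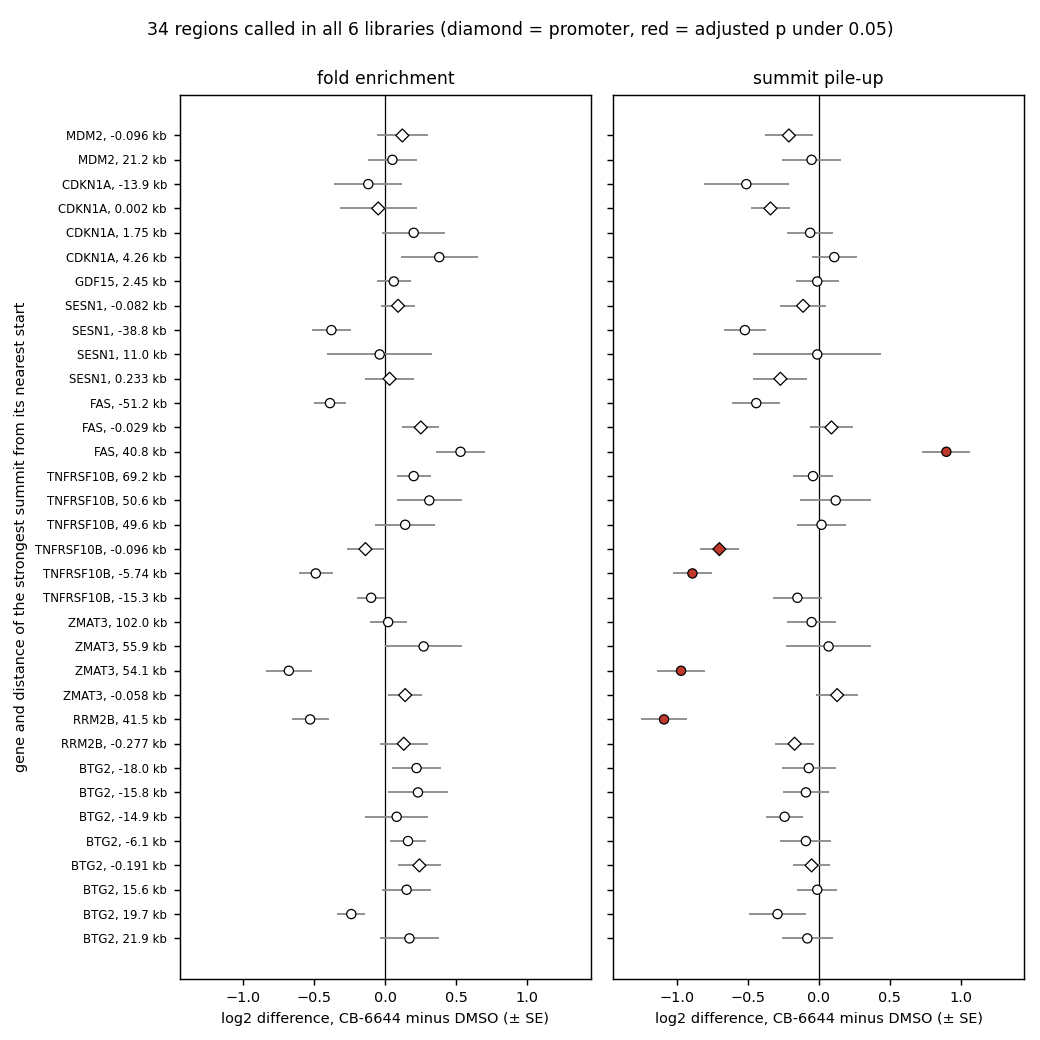
The log2 difference between CB-6644 and DMSO (limma estimate ± SE, 3 against 3 libraries) of the 34 regions called in all 6 libraries, on fold enrichment (left) and on summit pile-up (right). Diamonds are promoter regions, and red symbols passed an adjusted p under 0.05, 0 on the left and 5 on the right.

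MDM2, the ubiquitin ligase that ends the p53 response, lies at chr12:68808177-68845544 on the plus strand. Its promoter region, chr12:68807436-68809108, took in both the upstream start and the downstream start that follows the consensus match shown above. The strongest peak was at percentiles 86.8, 84.9 and 89.3 in the CB-6644 libraries and 91.3, 92.6 and 89.0 in the DMSO libraries, with summit pile-ups of 189, 86 and 267 tags against 227, 352 and 291. The groups overlapped, and the DMSO libraries reached higher. CB-6644 and DMSO differed on the log2 scale by 0.12 (SE 0.18, limma adjusted p = 0.78) on fold enrichment and -0.21 (SE 0.17, adjusted p = 0.52) on pile-up. The strongest summit lay between -129 and -96 bp of the upstream start in every library. A separate peak at the downstream start was called in 4 libraries, at percentiles 81.7 and 78.5 in CB-6644 replicates 1 and 2 and 74.5 and 76.7 in DMSO replicates 1 and 2, and in the other 2 libraries 1 long peak spanned both starts.

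Inside MDM2 the strongest region called in all 6 libraries, chr12:68830216-68830487 in an intron 21.2 kb from the nearest start, had percentiles of 40.7, 62.0 and 54.6 with CB-6644 and 65.1, 58.1 and 46.8 with DMSO, which overlapped. The CB-6644-only region also lay in an intron. Its peaks were weak, at percentiles 4.39, 6.73 and 3.75 and pile-ups of 11, 6 and 13 tags. When each list was limited to its 58563 top peaks, it no longer counted as CB-6644-only.

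CDKN1A encodes p21, the inhibitor of cyclin-dependent kinases through which p53 stops the cell cycle, and lies at chr6:36676460-36687337 on the plus strand. Its promoter region, chr6:36678486-36679110, lay at the downstream group of starts, and the 2 upstream starts at 36676460 and 36676490 lay in no region. The percentiles were 74.1, 85.1 and 76.9 with CB-6644 and 90.7, 87.5 and 84.7 with DMSO, and the summit pile-ups were 145, 96 and 198 tags against 244, 309 and 262. The percentiles overlapped through CB-6644 replicate 2. The pile-ups did not overlap, with DMSO above, but they are raw tags not scaled for depth. Such a separation of raw tags was not counted over all regions, so it is not read as a result. The log2 difference was -0.05 (SE 0.27, limma adjusted p = 0.94) on fold enrichment and -0.34 (SE 0.14, adjusted p = 0.17) on pile-up. On fold enrichment the long-peak set gave -0.26 and the short-peak set 0.36.

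The distal CDKN1A region, chr6:36667131-36667414, holds the match with 1 mismatch that is shown above in full. It was not called in CB-6644 replicate 1, was at percentiles 34.2 and 5.44 in CB-6644 replicates 2 and 3, and at 66.6, 45.7 and 38.7 in the DMSO libraries. The summit pile-ups were 17 and 23 tags against 68, 67 and 58. Every called CB-6644 value was below every DMSO value in percentile and in raw tags, the latter not scaled for depth. The region was not in the fit, which needs a peak in each library. A second region 4.26 kb inside the gene, chr6:36682716-36683153, was the strongest outside the promoter, with percentiles of 86.2, 88.4 and 80.0 against 88.6, 85.3 and 73.9. These overlapped, and the log2 difference was 0.38 (SE 0.27, limma adjusted p = 0.56).

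Over the 6 libraries, the promoters whose percentiles were most like those of CDKN1A among 12921 compared were those of SLC29A1, P4HA2 and DLX1, with a mean absolute difference of 1.36, 1.40 and 1.61 percentile points. For MDM2 they were E2F7 (0.589), AKAP7 (0.670) and BSCL2 (0.725).

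BTG2, an antiproliferative gene, lies at chr1:203305491-203309602 on the plus strand and had the most open window of the 9, with 10 regions of which 8 were called in all 6 libraries, covering 13.5% of the window's bases. Its promoter region, chr1:203305113-203305847, was at percentiles 98.8, 98.3 and 98.6 with CB-6644 and 98.9, 98.9 and 98.5 with DMSO, with pile-ups of 371, 199 and 471 tags against 432, 561 and 491. The groups overlapped on both scales. On the log2 scale the difference was 0.24 (SE 0.15, limma adjusted p = 0.53) on fold enrichment and -0.05 on pile-up. The strongest region outside the promoter, chr1:203320634-203321443 at 15.6 kb from the start, was at percentiles from 98.8 to 99.6 in all 6 libraries. The region 19.7 kb from the start, named after its values were seen, was at 50.3, 41.6 and 49.5 with CB-6644 and 69.0, 66.7 and 64.3 with DMSO, groups that did not overlap, with a log2 difference of -0.24 (SE 0.10, limma adjusted p = 0.34). An intronic region of 95 bp with a match of 3 mismatches was called in DMSO replicate 1 alone, at percentile 20.3.

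GDF15 encodes a secreted cytokine of the TGF-beta family that is released under stress, and lies at chr19:18374731-18389176 on the plus strand. It had the weakest promoter of the 9. A region at its upstream start, chr19:18374468-18374654, was called at percentiles 0.441, 24.9 and 16.7 in the CB-6644 libraries and 16.7 in DMSO replicate 1, and was not called in the other 2 DMSO libraries. The DMSO-only region, chr19:18386805-18386977 in an intron 0.745 kb after the downstream start, was at percentiles 17.6, 10.8 and 19.2, with 21, 26 and 31 tags at the summit. Since a start within 1000 bp was reached by either region, the gene counted as open in all 6 libraries although neither was. With peaks of -log10 q of at least 5, or with 58563 top peaks of each list, the promoter count was 8 of 9 rather than 9.

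The GDF15 region called in all 6 libraries, chr19:18388323-18388858, lay over a coding exon, and held a match with 3 mismatches. It was at percentiles 65.8, 70.3 and 68.8 with CB-6644 and 76.2, 73.1 and 65.6 with DMSO, which overlapped, with a log2 difference of 0.06 (SE 0.12, limma adjusted p = 0.83). An intergenic region downstream of the gene, chr19:18401751-18402083, was called in the 3 CB-6644 libraries at percentiles 54.5, 72.7 and 50.4 and in DMSO replicate 1 at 39.9. It is named after its values were seen, and was in no fit.

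**Figure D4:**
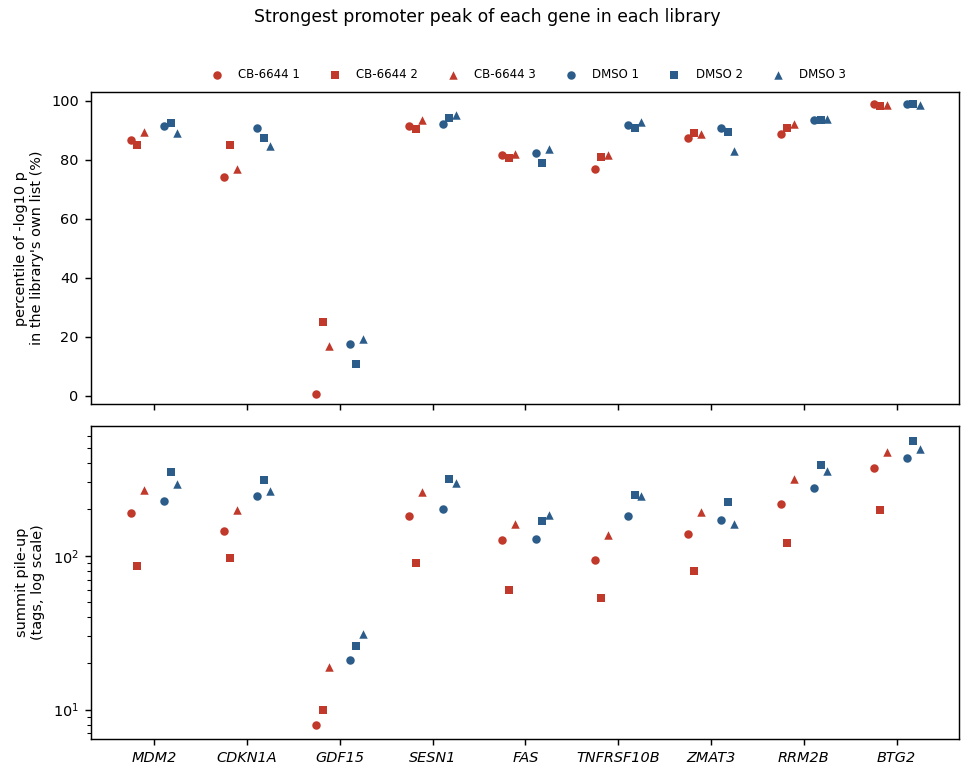
The strongest promoter peak of each gene in each library, as the percentile of its -log10 p in its own list (top) and as the summit pile-up in tags on a log scale (bottom), red for CB-6644, blue for DMSO, with 1 symbol per replicate. In percentiles 8 genes lay above 74 in every library and GDF15 below 25, and CB-6644 replicate 2 had the lowest pile-up of every promoter except that of GDF15.

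SESN1, a sestrin that restrains mTORC1 signalling under stress, lies at chr6:108984309-109094846 on the minus strand and had 2 promoter regions. The internal one, chr6:109008996-109009925, was at percentiles 91.5, 90.4 and 93.4 with CB-6644 and 92.1, 94.2 and 95.3 with DMSO, which overlapped, with a log2 difference of 0.09 (SE 0.12, limma adjusted p = 0.76). It held a match with 3 mismatches that was covered by the peak of CB-6644 replicate 1 alone. The upstream one, chr6:109094279-109095622, is shared with the start of CEP57L1 and was at 88.1, 83.1 and 86.9 against 90.5, 90.6 and 93.8. All 3 CB-6644 libraries were below all 3 DMSO libraries, while the log2 difference was 0.03 (SE 0.17, adjusted p = 0.94) on fold enrichment and -0.27 (SE 0.19, adjusted p = 0.46) on pile-up.

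The DMSO-only region of SESN1, chr6:109036461-109036832 in an intron, was at percentiles 45.3, 34.7 and 37.4, with 25, 30 and 32 tags at the summit. It lay nearer the middle of the lists than the group-only regions of MDM2 and GDF15. Among regions called in all 6 libraries, the strongest outside the promoters, chr6:109083746-109083982, was at 50.4, 20.9 and 56.6 with CB-6644 and 26.9, 57.0 and 64.2 with DMSO. Its low values were those of the 2 short-peak libraries, 1 in each group. A further intronic region, chr6:109048211-109048524, named after its values were seen, was at 27.9, 28.5 and 29.6 with CB-6644 and 47.2, 50.9 and 47.1 with DMSO. Its log2 difference was -0.38 (SE 0.14, limma adjusted p = 0.28), with -0.36 in the long-peak and -0.41 in the short-peak set.

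FAS encodes a death receptor that triggers apoptosis when bound by its ligand, and lies at chr10:88953813-89029605 on the plus strand. Its promoter region, chr10:88990342-88991790, which an ACTA2 start shares, was at percentiles 81.7, 80.5 and 81.8 with CB-6644 and 82.3, 79.0 and 83.5 with DMSO, with pile-ups of 126, 60 and 160 tags against 129, 168 and 183. The groups overlapped on both scales. On the log2 scale the difference was 0.25 (SE 0.13, limma adjusted p = 0.44) on fold enrichment and 0.09 on pile-up. The consensus match lay in the downstream part of the region, which a single long peak covered in DMSO replicates 2 and 3 and separate small peaks reached in CB-6644 replicates 2 and 3 and in DMSO replicate 1. A small region within 1000 bp of another start, chr10:88987444-88987554, was called in the 2 short-peak libraries alone, at percentiles 18.4 and 32.2. Its strongest summit lay 745 bp after that start.

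Regions on both sides of FAS had percentiles that differed in opposite directions. The region beyond its 3′ end, chr10:89032107-89032419, is named after its values were seen. It was the 1 region of the 34 that was higher in every CB-6644 library, at percentiles 49.9, 61.3 and 52.1 against 35.7, 45.0 and 27.9. Its log2 difference was 0.53 (SE 0.17, limma adjusted p = 0.21) on fold enrichment and 0.90 (SE 0.17, adjusted p = 0.017) on pile-up. The region before the gene, chr10:88934918-88935679 in introns of ACTA2 and STAMBPL1, was at 42.2, 33.7 and 42.1 with CB-6644 and 60.5, 60.2 and 61.5 with DMSO. Its log2 difference was -0.39 (SE 0.11, limma adjusted p = 0.14), and the adjusted p was 0.046 with the library set as a term. An intronic region, chr10:88962333-88962766, was at 15.5 and 18.7 in CB-6644 replicates 1 and 3, was not called in CB-6644 replicate 2, and was at 51.1, 63.6 and 60.7 with DMSO. Named after its values were seen, it could be fitted in the 4 long-peak libraries, with a log2 difference of -1.04 (limma adjusted p = 0.020), and without CB-6644 replicate 2, with -0.91 (adjusted p = 0.048).

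ZMAT3, a zinc finger protein that binds RNA and regulates splicing, lies at chr3:178960121-179072215 on the minus strand. Its promoter region, chr3:179071323-179072203, was at percentiles 87.3, 89.0 and 88.8 with CB-6644 and 90.8, 89.5 and 83.1 with DMSO, which overlapped, with a log2 difference of 0.14 (SE 0.12, limma adjusted p = 0.64) on fold enrichment and 0.13 on pile-up. The match with 0 mismatches lay 1.37 kb inside the gene, and 1116 bp beyond the promoter region. The strongest region outside the promoter, chr3:178969095-178969666, was at 80.8, 78.1 and 69.5 against 79.8, 80.6 and 80.0, which overlapped.

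An exonic region of ZMAT3, chr3:179017315-179017553 at 54.1 kb from the nearest start, named after its values were seen, had the largest difference in fold enrichment of the 34. It was at percentiles 27.5, 34.8 and 15.1 with CB-6644 and 60.4, 61.7 and 56.4 with DMSO, and its summit pile-ups were 28, 12 and 24 tags against 46, 74 and 69. The groups did not overlap in percentile, nor in raw tags, which are not scaled for depth. The log2 difference was -0.68 (SE 0.16, limma adjusted p = 0.11) on fold enrichment, with an adjusted p of 0.034 when the library set was a term, and -0.97 (SE 0.17, adjusted p = 0.012) on pile-up. On fold enrichment the long-peak libraries gave -0.80 and the short-peak ones -0.44. Without CB-6644 replicate 2 the log2 difference was -0.76 (limma adjusted p = 0.048).

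TNFRSF10B encodes the TRAIL receptor DR5, a second death receptor, and lies at chr8:23020133-23069031 on the minus strand. Its promoter region, chr8:23068616-23069438, was at percentiles 76.9, 80.9 and 81.6 with CB-6644 and 91.8, 90.7 and 92.7 with DMSO, with pile-ups of 94, 53 and 136 tags against 182, 250 and 245. All 3 CB-6644 libraries were below all 3 DMSO libraries in percentile, as at 24.5% of all regions called in all 6 libraries. They were also below in raw tags, which are not scaled for depth. The log2 difference was -0.14 (SE 0.13, limma adjusted p = 0.66) on fold enrichment and -0.70 (SE 0.14, adjusted p = 0.020) on pile-up, the lowest pile-up difference of the promoter regions. A match with 2 mismatches at the gene-side edge of the region was covered by the peak of DMSO replicate 3 alone.

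An intergenic region at -5.74 kb from the TNFRSF10B start, chr8:23074326-23075005, named after its values were seen, had percentiles that did not overlap between the groups. They were 45.1, 43.8 and 44.3 against 78.1, 71.7 and 68.6, and the pile-ups were 39, 18 and 47 tags against 88, 105 and 95. The log2 difference was -0.49 (SE 0.12, limma adjusted p = 0.12) on fold enrichment, with an adjusted p of 0.038 when the library set was a term, and -0.89 (SE 0.14, adjusted p = 0.0079) on pile-up. On fold enrichment the long-peak libraries gave -0.40 and the short-peak ones -0.67. The strongest region outside the promoter, chr8:23083888-23084634 at -15.3 kb from the start, overlapped between the groups at 83.8, 92.5 and 84.8 against 92.3, 91.3 and 89.5.

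RRM2B encodes the p53-induced small subunit of ribonucleotide reductase, which supplies deoxynucleotides for DNA repair, and lies at chr8:102204502-102238961 on the minus strand. Its promoter region, chr8:102238578-102239863, was at percentiles 88.9, 90.9 and 92.2 with CB-6644 and 93.4, 93.5 and 93.8 with DMSO. The groups did not overlap, though the highest CB-6644 value was close to the lowest DMSO value, and the log2 difference was 0.13 (SE 0.17, limma adjusted p = 0.77) on fold enrichment and -0.17 (SE 0.14, adjusted p = 0.55) on pile-up. The match with 1 mismatch 1.93 kb inside the gene was covered by no peak.

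The intergenic region beyond the 3′ end of RRM2B, chr8:102196913-102197875, had the largest difference in pile-up of the 34. It was at percentiles 31.0, 26.1 and 37.3 with CB-6644 and 66.8, 69.4 and 60.9 with DMSO, with 28, 11 and 38 tags at the summit against 61, 95 and 77. Every CB-6644 library was below every DMSO library in percentile and in raw tags, the latter not scaled for depth. The log2 difference was -0.53 (SE 0.13, limma adjusted p = 0.12) on fold enrichment, with an adjusted p of 0.033 when the library set was a term, and -1.09 (SE 0.16, adjusted p = 0.0067) on pile-up. Within the library sets it was -0.49 for long-peak and -0.62 for short-peak libraries, on fold enrichment. The neighbouring region, chr8:102203284-102203805, named after its values were seen, was not called in CB-6644 replicate 3, and was at 20.2 and 23.2 in the other 2 CB-6644 libraries and 49.4, 53.3 and 45.1 with DMSO.

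**Figure D5:**
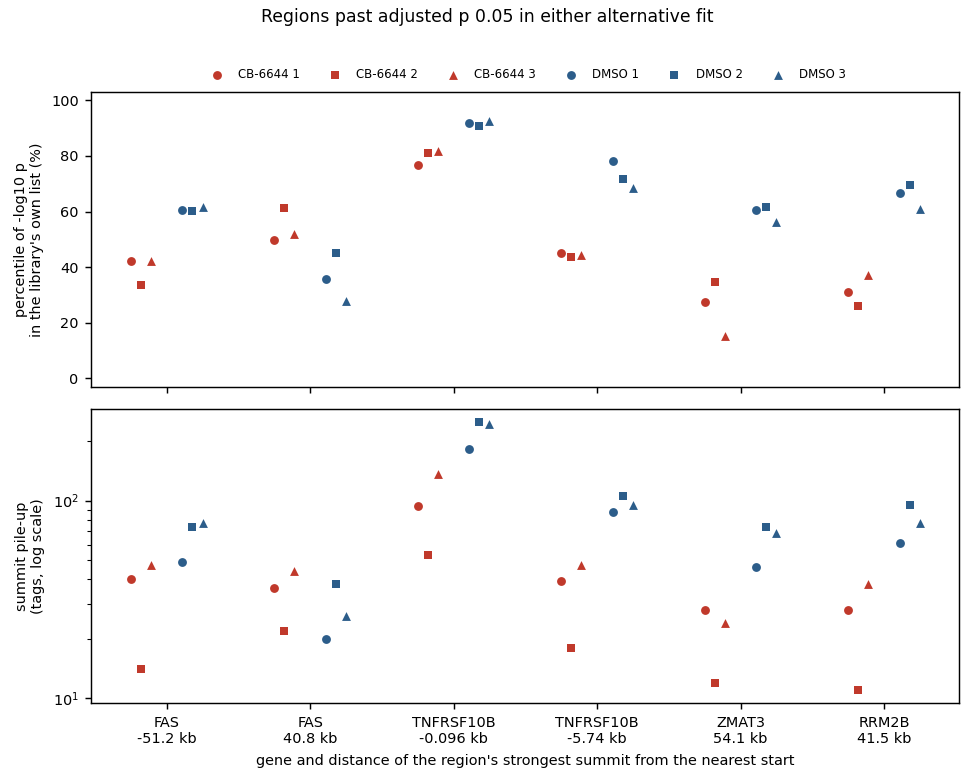
The 6 regions of the p53 targets that passed an adjusted p under 0.05 on pile-up or with the library set as a term, by library, as percentile (top) and summit pile-up in tags on a log scale (bottom), red for CB-6644 and blue for DMSO. Labels give the gene and the distance of the strongest summit from the nearest start in kb. In percentiles the groups do not overlap at any of the 6, with CB-6644 lower at 5 and higher at the region beyond FAS. The 6 were picked by fits on values of the same peaks, so their separation in percentile is no further support.

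The calls on pile-up and with the library set were made at regions that the fit of fold enrichment did not call, so each call holds for the setting it is given with. Pile-up was also taken over each library's genome-wide background, in tags and not divided by peak length, a setting chosen after the data were seen. The median of all 42089 regions was then 0.19 and that of the 34 was 0.09, and 0 regions were called. On that scale, with the shift of all regions still in the values, the lowest of the 34 was the region beyond RRM2B at -0.94 and the highest was the region beyond FAS at 1.08.

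A further 24 genes of the p53 pathway, listed with earlier results of these data known, had 136 regions in their windows, of which 86 were called in all 6 libraries. A promoter peak was present in all 6 libraries for 24 of the 24, against 64.7% of all protein-coding genes. At an adjusted p under 0.05 on fold enrichment, 1 of the 86 was lower and 0 were higher, against 0.461% and 0.513% of all regions. The lower one was an intergenic region in the window of PMAIP1, which encodes the BH3-only protein NOXA, chr18:59923215-59923472, at percentiles 23.9, 14.3 and 9.11 with CB-6644 and 57.8, 51.8 and 43.5 with DMSO (log2 difference -0.83, SE 0.14, limma adjusted p = 0.046). No region of the whole table, this one included, was called lower with the replicate number as a block or without any 1 replicate other than CB-6644 replicate 2. By percentile, 16 of the 86 were lower in every CB-6644 library and 3 were higher, against 24.5% and 5.61% of all regions. Of the 136 regions, 2 were DMSO-only and 1 was CB-6644-only, against 4.50% and 0.586% of all regions, and with such counts neither is read as a difference. The DMSO-only ones lay in an intron of DDB2, a damage-recognition subunit of nucleotide excision repair, and near SESN2, a second sestrin. The CB-6644-only one lay over a coding exon of CCNG1, which encodes cyclin G1. Fewer peaks in every CB-6644 library were found at 2 of the 24 genes, AEN (named after its values were seen) and SESN2, against 5.56% of all genes. More peaks in every CB-6644 library were found at 1, CCNG1, a direction for which no share of all genes is given.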

How the data were processed

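Accessibility was measured in 6 libraries, grouped by the treatment given in the labels. The submitters' processing notes name Bowtie2 2.4.2 for alignment, hg38 as the build and MACS3 3.0 for peaks, which the authors deposited as 1 list per library. Peak-calling settings are not given in the sources used here. In the deposited lists, fold enrichment is a ratio of summit pile-up to local background, with 1 added to both and no scaling between libraries. The deposited -log10 p and -log10 q are those of the authors' peak caller at the summit, and the lowest -log10 q was 3.01 to 3.33. The deposited score column was read and is not reported. The authors tested accessibility with edgeR on read counts. Peak lists carry no counts, so that test was not run, and limma 3.58.1 (R 4.3.3) was run on log2 fold enrichment in its place.

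Only peaks on the 24 standard chromosomes entered, and 0 of them ran past a chromosome end of the hg38 copy. Pile-ups were recovered from fold and -log10 p under a Poisson model. Regions, promoters (1000 bp either side of each start of a protein-coding transcript) and windows (20 kb flanks) came from merged peaks and GENCODE release 44. A match to the p53 consensus had at most 3 mismatches with the C and G of each core intact. The limma step was tested on simulated data. Peak counts were compared by exact two-sided permutation. Python 3.11.15, numpy 2.4.6, scipy 1.17.1 and pandas 2.3.3 were used.

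The members, the pathway and marker lists and the tests were chosen with earlier results of these data known. The regions named for each gene are its promoter regions, group-only regions, regions past an adjusted p of 0.05, its strongest region outside the promoter called in all 6 libraries and those with a consensus match, and any other is said to have been named after its values were seen. Pathway genes are named where they had a region past 0.05 or a group-only region. Same-numbered libraries of both groups did not deviate together, so the replicate number was not used as a block in the fit reported. With no read totals, depth is known only through the recovered background, and pile-ups cover counting of tags that may hold duplicates. The result for 1 marker gene and the sequence of 1 region are not reported here.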

Additional observations from a re-analysis of the deposited data

How the results depend on the processing

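The lists hold no read counts and the shallower libraries are mostly those of CB-6644, so depth limits what a missing peak or a lower pile-up can show. The promoter count of 9 was 3 when a peak had to cover at least 50% of a region, 6 with the start of the gene record alone, and 9 without any 1 replicate. The 2 DMSO-only regions were 1 with equal numbers of top peaks, 0 with 20000 top peaks, 1 with 50% cover and 5 with 50 kb flanks, and 2 to 3 without 1 replicate. The 1 CB-6644-only region was 0 with equal numbers, 0 with 20000 top peaks and 3 in the 4 long-peak libraries, and 1 to 3 without 1 replicate (3 without DMSO replicate 1). Regions of the 9 genes lower with CB-6644, 0 as reported, were 4 on -log10 p, 4 on summit pile-up, 4 with the library set as a term and 1 in the 4 long-peak libraries, and 0 to 2 without 1 replicate (2 without CB-6644 replicate 2, at ZMAT3 and FAS). Regions higher, 0 as reported, were 1 on -log10 p and 1 on summit pile-up, and 0 without any 1 replicate. Windows whose peak counts did not overlap rose from 0 to 1 with equal numbers of top peaks, which was BTG2, with more peaks in every CB-6644 library. That cut takes more peaks from the longer lists, and the share over all genes was not counted at this setting. The BTG2 count is therefore not read as a result.

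Over all regions, 194 lower and 216 higher became 1307 and 988 in the 4 long-peak libraries, 82 and 100 with median centring, 1660 and 1663 on -log10 p, 2253 and 2090 on summit pile-up, 1687 and 1429 with the library set as a term, and 0 and 0 on pile-up over genome-wide background. Without 1 replicate they ran from 0 to 681 lower and from 0 to 531 higher, both highest without CB-6644 replicate 2 and 0 without any other. The replicate block left 0 and 0 calls over all regions and 0 and 0 at the 9 genes. Deviations of same-numbered libraries correlated at -0.477, -0.332 and 0.326, so the numbers do not pair the libraries. The causes of these shifts were not tested.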
